A study of Arabidopsis thaliana with 45 samples.

Results

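The comparison described here set the first true leaves of Arabidopsis plants grown in long days against those of plants grown in short days at D30, which the labels give as 30 DAG. It used 6 of the 45 RNA libraries of the series: Col-0 under long days, 3 libraries, and Col-0 under short days, 3 libraries, both as labelled. Long days had 16 h of light and 8 h of dark, and short days had 8 h of light and 16 h of dark. Both groups had the genotype Col-0, with no transgene, mutation or added agent in the labels, and both were sampled at 1 age. The series also sampled the same leaves at other ages under both day lengths and in a tcx5/6 line under long days. The labels do not say how many plants or leaves went into a library, whether replicates came from separate plants or sowings, or at which hour leaves were taken. The p-values given below thus rest on library-to-library spread alone, which may be technical. Of 37336 genes in the table, the 20490 with a normalised read count of 10 or more in at least 3 of the 6 libraries were tested.

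Day length is read by the leaf through the circadian clock and its photoreceptors, and in Arabidopsis long days bring flowering forward through the mobile signal FT. Day length also sets how much sugar a leaf makes by day and how long it must live on starch by night. As a leaf ages, its cells stop dividing, it exports its sugars and nitrogen, and in the end it breaks down its chlorophyll. DNA methylation at CG and CHG sites is copied after each round of replication by enzymes such as MET1 and CMT3, so dividing cells make most of them. In Arabidopsis the CXC proteins TCX5 and TCX6 belong to the DREAM complex, which holds down genes of the cell cycle and of DNA methylation.

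Each of the 6 libraries held 23078714 to 27855700 reads in genes, and reads in no gene made up 47.3 to 48.2% of each library's total. Between 22869 and 23254 genes had a read in each library. The correlation of log2 levels was 0.958 to 0.974 among long-day libraries, 0.984 among short-day libraries and 0.814 to 0.840 between the groups. The spread of the 3 short-day libraries did not grow with the level of a gene in the way it did in the long-day libraries. Relative to counting noise, their variance was 2.88 for genes with 20 to 100 reads and 3.21 for genes with over 1000, a rise of 1.11-fold. In the long-day libraries the same measure rose 4.54-fold, from 3.24 to 14.7. The short-day groups at D13, D18, D23 and D40 showed rises of 1.08-, 1.12-, 1.06- and 1.04-fold. In the long-day Col-0 groups of those ages the rises were 3.40-, 9.87-, 2.55- and 13.1-fold. For most lists the count of genes called at D30 is therefore followed by the count with the short-day group taken as 1 library, for which the lone sample is assumed to vary like the long-day libraries. That setting was not run for the comparison of D30 with other ages, whose SEs and p-values carry the same limit. The source of this difference in spread was not tested.

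Several genes bear on the labels themselves. TCX5 had 434, 525 and 476 normalised reads in the long-day libraries against 139, 119 and 147 in the short-day libraries, and was 3.54-fold higher in long days (log2 difference 1.82 ± 0.14 SE, adjusted p = 2.1e-05). The libraries carry no strand, and the reads that the overlapping gene on the opposite strand would give, from its own mean and the length shared, equal 17.2% of the mean of TCX5, a share that can pass 100% for other genes. TCX6 had 69.8, 72.4 and 94.9 in long days against 2040.2, 2104 and 1916 in short days, and was 25.6-fold higher in short days (log2 difference -4.67 ± 0.14 SE, adjusted p = 1.9e-07). The pair thus went in opposite directions. Groups did not overlap for either gene, nor for 66.3% of all tested genes. In the libraries labelled tcx5/6 at D30, TCX5 had 331, 522 and 268 and TCX6 had 38.7, 50.4 and 37.7. QQS, an Arabidopsis orphan gene that affects leaf starch and is known for heritable differences in silencing between lines, had 595, 852 and 502 in long days and 0 reads in every short-day library. Against a limit of 3 reads over the short-day group as a whole, it was at least 727-fold higher in long days (log2 difference 9.31 ± 0.33 SE, adjusted p = 4.2e-07). Across all ages, QQS was the 1 gene with 0 in all 15 short-day libraries and 10 or more in all 15 long-day Col-0 libraries, and 3 genes showed the converse. What set these values was not tested, and the groups are called by their labels throughout.

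FT, the leaf signal that long days are known to raise, had 48.7, 73.3 and 26 in the long-day libraries and 32.5, 12.1 and 13.4 in the short-day libraries. The groups overlapped, and the difference did not pass the test (log2 difference 1.33 ± 0.51 SE, adjusted p = 0.054). FT passed without long-day replicate 3 (adjusted p = 0.029) or without short-day replicate 1 (adjusted p = 0.025). It also passed with all 6 libraries after quantile normalisation (adjusted p = 0.014), with a pseudocount of 10 (adjusted p = 0.048) and in DESeq2 on whole reads (adjusted p = 0.025). FT was not called in edgeR on whole reads, after TMM scaling, with a pseudocount of 0.5 or in a fit of all 15 groups. Nor was it called with a replicate block or with the short-day libraries as 1 (log2 difference 1.19). The tissue label could be checked against markers. Photosynthesis genes summed to 1380330 to 1785670 normalised reads in long days and 929277 to 934961 in short days, while root markers summed to at most 36.3 and shoot meristem markers to at most 10.1 in any of the 6. No root or shoot meristem marker reached the threshold for testing. Flower markers summed to 90.9 to 185 in long days and 142 to 202 in short days, with 3 tested, 1 higher in long days and 0 in short days. These are bulk leaf samples, so fewer cells of a type and less RNA per cell cannot be told apart.

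Most tested genes differed between the day lengths at D30. Of 20490 genes, 11948 (58.3%) were called at an adjusted p under 0.05 by limma on log2 of the normalised read count + 1. Of these, 5367 (26.2%) were higher in long days and 6581 (32.1%) were higher in short days. At 2-fold or more, 1915 (9.35%) were higher in long days and 3582 (17.5%) in short days, so the large differences leaned toward short days. The groups did not overlap for 13586 genes (66.3%). With the short-day libraries taken as 1, 5000 genes were called (24.4%), 2336 higher in long days (11.4%) and 2664 higher in short days (13.0%), all of them among those called with all 6 libraries and in the same direction. Counts of list members given below stand beside these shares, and those with the short-day libraries as 1 beside the shares of that setting. The lists and their members were chosen with earlier results of these data known. Their counts thus describe the lists and are no independent support. The median log2 difference over all genes was -0.05. Quantile normalisation moved that median to 0.12 and turned the split to 7048 higher in long days and 5240 higher in short days, so the balance between directions depends on the scaling. No named gene reversed, but most were chosen for large differences among called genes, which made a reversal unlikely.

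**Figure D1:**
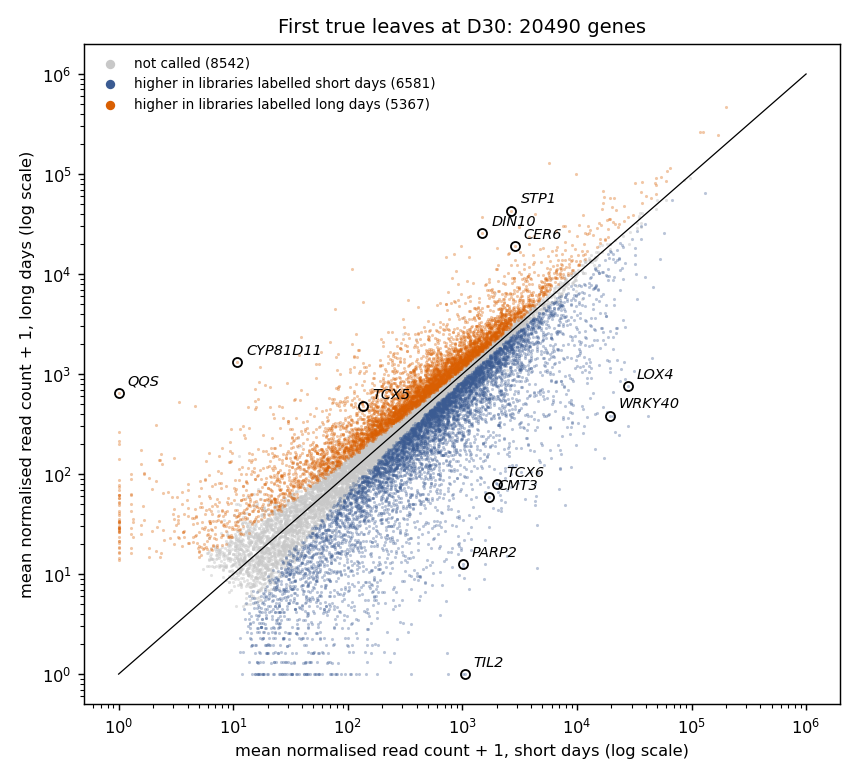
Each point is 1 of the 20490 tested genes, with its mean normalised read count + 1 over the 3 short-day libraries on the x axis and over the 3 long-day libraries on the y axis, both on log scales. Orange points are the 5367 genes called higher in long days, blue points the 6581 called higher in short days and grey points the rest, and named genes are circled.

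The genes with the largest differences stood near 0 in 1 group. TIL2, which encodes a second catalytic subunit of DNA polymerase epsilon, had 0 in all long-day libraries and 1061, 1059 and 1011 in the short-day libraries, at least 1092-fold higher. SPP1, a sucrose-phosphate phosphatase, likewise had 0 in long days and 769.9, 793 and 703 in short days, at least 790-fold higher. BSU1, a phosphatase of brassinosteroid signalling, had 0 to 1.83 against 725 to 753, and BUB3.2, related to a spindle checkpoint protein, had 0 to 0.999 against 225 to 300.3, and the few reads in long days allow no firm fold for either. SMC6A, a subunit of the SMC5/6 complex that keeps broken and replicating DNA in order, was 125-fold higher in short days (log2 difference -7.24 ± 0.67 SE, adjusted p = 6.1e-05, and -6.34 without long-day replicate 1). Libraries of the 2 groups did not overlap for any of these 5 genes, which were picked for large differences among called genes. Over all tested genes, 66.3% did not overlap.

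The 10 genes furthest toward long days included enzymes of detoxification and of the cell wall, besides QQS. CYP81D11, a cytochrome P450 that foreign chemicals are known to induce, had 2133, 899 and 911 in long days and 5.13, 21.2 and 3.34 in short days. It was 133-fold higher in long days (log2 difference 7.17 ± 0.61 SE, adjusted p = 3.9e-05, and 7.87 without short-day replicate 2). GSTU1, a glutathione transferase, was 37.9-fold higher (log2 difference 5.11 ± 0.30 SE, adjusted p = 5.9e-06). EXPA16, an expansin that loosens cell walls, had 68.8, 121 and 232 against 0 in every short-day library, at least 157-fold higher. BXL2, a beta-xylosidase of the wall, had 402, 888 and 1023 against 2.57, 34.3 and 17.5 (log2 difference 5.76 ± 0.78 SE, adjusted p = 4.6e-04), a difference of 4.81 without short-day replicate 1 and 6.46 without short-day replicate 2. DELTA-TIP, a water channel of the vacuole, had 1970, 4880.2 and 6432 against 59, 90.8 and 80.1 and was 57.8-fold higher. OFP15, an ovate family repressor, had 576 to 854 against 0.855 to 26.2, and its log2 difference of 6.20 ± 0.89 SE became 5.01 without short-day replicate 1 and 6.95 without short-day replicate 2. GRP5, a glycine-rich protein, was 35.8-fold higher (log2 difference 5.21 ± 0.41 SE, adjusted p = 2.4e-05), and MRU1 had 118 to 135 against 0 to 3.34. MRD1 had 104, 38.5 and 292 against 0, 6.05 and 0, but reads expected from the gene opposite equal 55.1% of its mean, so its call is uncertain. Its difference of 5.80 was 6.52 without long-day replicate 2, 5.07 without long-day replicate 3 and 6.74 without short-day replicate 2.

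**Figure D2:**
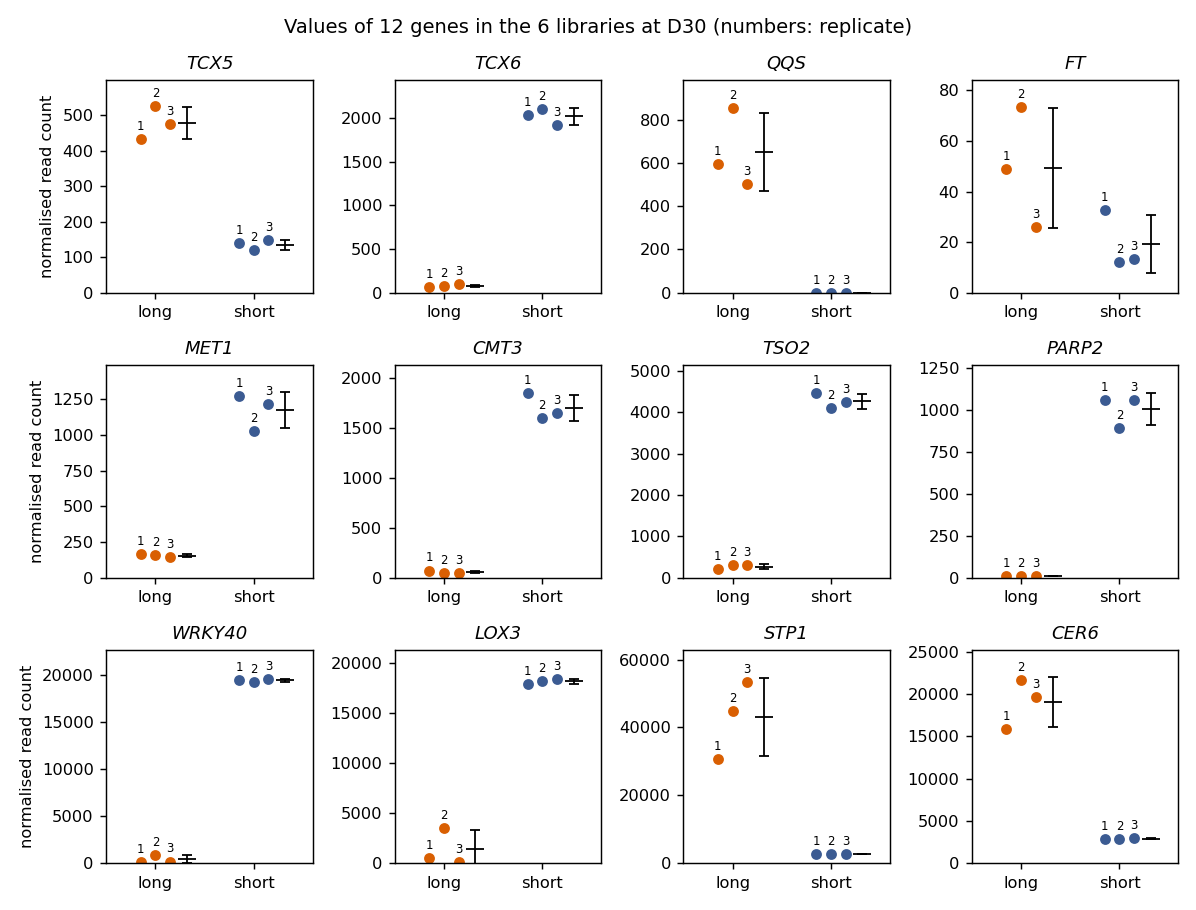
Normalised read counts of 12 genes in each of the 6 libraries, with the replicate number above each point, and the mean and SD (n = 3) as a bar beside each group, where the y axes start at 0 and error bars reaching below 0 are cut there. Groups do not overlap for any gene shown other than FT, where 66.3% of all tested genes do not overlap. Long-day replicate 2 stands above the other long-day libraries for WRKY40 and LOX3.

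Genes that maintain DNA methylation were mostly lower in the long-day leaf. Of 10 tested, 9 were higher in short days and 1 in long days, with a median log2 difference of -2.57 against -0.05 over all genes and 32.1% of all genes called in that direction. MET1, which copies CG methylation, had 165, 158 and 143 in long days and 1269, 1031 and 1216 in short days, 7.55-fold higher in short days (log2 difference -2.91 ± 0.12 SE, adjusted p = 8.7e-07). CMT3, which copies CHG methylation, had 72.6, 50.4 and 51 against 1844, 1599 and 1651, 29.3-fold higher (log2 difference -4.87 ± 0.16 SE, adjusted p = 3.5e-07). The nucleosome remodeller DDM1, which opens heterochromatin to the methyltransferases, had 16.2, 28.4 and 39 against 553, 522 and 558, 19.5-fold higher (log2 difference -4.32 ± 0.30 SE, adjusted p = 1.2e-05). For all 3 the lowest short-day library lay above the highest long-day library, as for 36.1% of all tested genes. VIM1 and VIM3, which bind newly copied, partly methylated CG sites, were 7.77-fold and 12.6-fold higher in short days (adjusted p = 8.6e-05 and 9.0e-06). With the short-day libraries as 1, 6 of the list were called higher in short days and 1 in long days. The libraries labelled tcx5/6 at D30, which also came from long days, had 205, 203 and 149.6 for MET1 and 193, 175 and 97.5 for CMT3.

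The RNA-directed pathway, which sets DNA methylation through small RNAs, differed in part. Of 22 genes tested, 10 were higher in short days, against 32.1% of all genes, 2 in long days and 10 were not called, with a median of -0.24. CLSY4, a chromatin remodeller that brings RNA polymerase IV to its targets, had 3.82, 5.5 and 3.0 against 239.5, 161 and 148 and was 44.5-fold higher in short days (log2 difference -5.17 ± 0.34 SE, adjusted p = 9.8e-06). AGO6, an Argonaute that carries the small RNAs, had 8.6, 5.5 and 26 against 347, 393 and 311 (log2 difference -4.88 ± 0.49 SE, adjusted p = 8.6e-05, and -5.47 without long-day replicate 3). Both genes lay far apart between the groups, while RDR2, which makes the double-stranded RNA, and HEN1, which methylates small RNA ends, were 2.12-fold and 2.09-fold higher. RDR2 was not called with the short-day libraries as 1 (adjusted p = 0.054). Counted that way, 4 members were higher in short days and 0 in long days.

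Removal of methylation was covered by 6 genes, of which 2 were higher in short days and 0 in long days, or 1 and 0 with the short-day libraries as 1. That is close to the 32.1% of all genes higher in short days, so the count shows nothing particular to the list. ROS1, the main DNA demethylase of leaves, had 252, 475 and 461 in long days and 2843, 2787 and 2650 in short days, 6.97-fold higher in short days (log2 difference -2.85 ± 0.22 SE, adjusted p = 2.4e-05). DML3, a related demethylase, was 1.73-fold higher in short days (adjusted p = 0.0101) and not called with the short-day libraries as 1 (adjusted p = 0.081). IBM1, a histone demethylase that keeps methylation out of genes, was 2.05-fold higher in short days (log2 difference -1.04 ± 0.07 SE, adjusted p = 1.4e-05).

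Genes of the DREAM complex, the E2F factors and the CXC proteins were mostly higher in short days, 13 of 19 tested against 32.1% of all genes. TCX5 was the 1 member higher in long days. The list's median log2 difference was -0.96, and 12 members were called in short days with those libraries as 1. MYB3R4, an activator of mitotic genes, had 12.4, 10.1 and 13 against 294, 160.4 and 248, 19.8-fold higher in short days (log2 difference -4.16 ± 0.29 SE, adjusted p = 1.4e-05). SOL1, a CXC protein of the TCX family, was 8.91-fold higher, and ALY1, the LIN9-type subunit, was 6.27-fold higher (adjusted p = 1.2e-04 and 5.5e-07). TCX5 and TCX6 therefore differed in direction within a list that otherwise moved 1 way or was not called.

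DNA replication genes moved together. Among all genes, 32.1% were higher in short days. All but 1 of 20 tested, 19 genes, were higher in short days and 0 in long days, with a median log2 difference of -2.44, and 16 were called with the short-day libraries as 1. Summed over the list, levels were 1749 to 2167 in long days and 11495 to 11731 in short days. TSO2, the small subunit of ribonucleotide reductase that makes deoxynucleotides, had 214, 298 and 307 against 4471, 4111 and 4248 and was 15.7-fold higher in short days (log2 difference -3.98 ± 0.14 SE, adjusted p = 4.0e-07). The origin recognition subunits ORC1B and ORC2 were 19.6-fold and 21.5-fold higher (adjusted p = 5.2e-05 and 7.2e-06). ORC6 had 1.91, 27.5 and 12 against 217, 252 and 309 (log2 difference -4.65 ± 0.73 SE, adjusted p = 9.8e-04). Its difference was -3.74 without long-day replicate 1 and -5.39 without long-day replicate 2, and it was not called with the short-day libraries as 1 (adjusted p = 0.077).

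Promoters were read because these genes moved together and E2F factors are known to bind a short word before many of them. The 250 bases before the annotated start were taken from RefSeq, assembly TAIR10.1, the build behind the deposited table being not given in the sources used here. The letters TTTCCCGC or TTTGGCGC, on either strand, stood in 8 of 21 replication promoters, against 0.958% of 27443 promoters of that length (263). Neither word was found in the promoters of the methylation maintenance list (0 of 11), the mitosis list (0 of 21) or the DNA damage list (0 of 15). Outside these lists, among the named genes, ROS1, SMC6A and ERD7, all higher in short days, and PP2AA3, higher in long days, carried 1 of them. Capitals mark the word in the sequences of MCM2 (chr1:16969964-16970213, plus strand), MCM5 (chr2:3527501-3527750, minus strand) and MCM6 (chr5:18010668-18010917, minus strand), helicase subunits that unwind DNA at the fork, and of ROS1 (chr2:15314808-15315057, minus strand), shown because the word lies 14, 19, 46 and 30 bases before their starts.
MCM2: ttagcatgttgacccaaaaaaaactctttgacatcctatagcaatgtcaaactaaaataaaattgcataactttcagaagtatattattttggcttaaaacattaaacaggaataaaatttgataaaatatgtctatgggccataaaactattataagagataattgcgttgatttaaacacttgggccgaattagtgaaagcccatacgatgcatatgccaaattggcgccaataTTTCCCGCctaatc
MCM5: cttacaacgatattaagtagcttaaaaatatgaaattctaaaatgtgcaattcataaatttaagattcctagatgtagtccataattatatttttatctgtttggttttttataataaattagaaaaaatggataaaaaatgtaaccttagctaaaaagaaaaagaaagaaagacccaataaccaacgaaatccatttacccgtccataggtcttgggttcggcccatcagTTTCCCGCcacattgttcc
MCM6: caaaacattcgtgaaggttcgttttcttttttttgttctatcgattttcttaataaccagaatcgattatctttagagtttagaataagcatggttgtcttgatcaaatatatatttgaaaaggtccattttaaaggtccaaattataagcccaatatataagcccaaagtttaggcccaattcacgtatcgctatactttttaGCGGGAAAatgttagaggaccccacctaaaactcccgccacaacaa
ROS1: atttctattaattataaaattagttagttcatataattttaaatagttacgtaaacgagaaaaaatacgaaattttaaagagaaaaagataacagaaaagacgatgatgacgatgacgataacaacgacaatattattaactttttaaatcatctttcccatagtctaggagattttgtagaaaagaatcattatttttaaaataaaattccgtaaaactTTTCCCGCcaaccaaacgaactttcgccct

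MCM2 had 94.6, 93.4 and 105 normalised reads in long days and 632, 713 and 571 in short days, MCM5 had 69.8, 109.9 and 118 and 602, 601 and 624, and MCM6 had 43, 37.6 and 41 and 201, 209.8 and 239.5. These 3 genes were named for their promoters, after their values were seen. A matching word is a description of these letters and does not show that a factor binds there.

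Mitosis genes were few in reads but also leaned to short days, in which 32.1% of all genes were higher. Of 15 tested, 12 were higher in short days and 0 in long days, with a median of -2.04, and 8 with the short-day libraries as 1. Their summed level was 159 to 199.7 in long days and 1077 to 1088 in short days. CYCB1;1, a mitotic cyclin that DNA damage also induces in Arabidopsis, had 9.56, 0.916 and 0.999 against 118, 99.8 and 119, 29.3-fold higher in short days (log2 difference -5.04 ± 0.66 SE, adjusted p = 3.8e-04, and -5.85 without long-day replicate 1). CDKB1;1, a mitotic kinase, had 3.82, 0 and 0.999 against 319.9, 294 and 383 (log2 difference -7.28 ± 0.55 SE, adjusted p = 2.1e-05, and -7.87 without long-day replicate 1), with reads expected from the gene opposite equal to 26.9% of its mean. Of 5 histone H3.1 genes, which package newly copied DNA, 4 were higher in short days, led by HTR13 at 8.97-fold (log2 difference -3.15 ± 0.16 SE, adjusted p = 2.7e-06). HTR2, HTR1 and HTR9 were 4.24-fold, 2.17-fold and 1.87-fold higher, and HTR9 was not called in a fit of all 15 groups (adjusted p = 0.425) or with the short-day libraries as 1 (adjusted p = 0.121). H3.1 copies are nearly identical, so reads may be split between them.

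Genes of DNA damage and recombination were also higher in short days, beside 32.1% of all genes. Of 15 tested, 13 were higher in short days and 0 in long days, the median being -2.40, and 11 were called with the short-day libraries as 1. PARP2, a poly(ADP-ribose) polymerase that marks DNA breaks, had 12.4, 11 and 11 in long days and 1059, 897 and 1063 in short days, 87.7-fold higher (log2 difference -6.33 ± 0.17 SE, adjusted p = 1.5e-07). RAD54, a motor protein of recombination, had 10.5, 38.5 and 15 against 1305, 1124 and 1153, 56-fold higher (log2 difference -5.94 ± 0.41 SE, adjusted p = 1.2e-05). BRCA1, a ubiquitin ligase of break repair, had 15.3, 13.7 and 23 against 968, 998 and 933, 55.7-fold higher (log2 difference -5.75 ± 0.21 SE, adjusted p = 5.5e-07). In each of the 3, picked for the largest differences of the list, every short-day library was far above every long-day library. Over all tested genes, 36.1% had every short-day library above every long-day library. RPA1E, which covers single-stranded DNA during repair, was 24.1-fold higher (log2 difference -4.62 ± 0.40 SE, adjusted p = 4.2e-05).

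The inhibitors that stop the cell cycle were called in both directions. Of 12 tested, 3 were higher in long days and 6 in short days, against 26.2% and 32.1% of all genes, with 2 and 3 when the short-day libraries were taken as 1. KRP2 and KRP4, which bind cyclin-dependent kinases, were 2.19-fold and 2.34-fold higher in long days, though KRP2 was not called with the short-day libraries as 1 (adjusted p = 0.056). SIM, which drives leaf hairs into repeated replication without division, had 128, 213 and 166 against 49.6, 48.4 and 56.8, 3.27-fold higher in long days. SMR5, a relative of SIM induced by DNA damage, had 1.91, 19.2 and 5.0 against 83, 115 and 131 and was 12.6-fold higher in short days (log2 difference -3.94 ± 0.66 SE, adjusted p = 0.0014). Without long-day replicate 1 its difference was -3.30, without long-day replicate 2 it was -4.70, and with the short-day libraries as 1 the adjusted p was 0.0796. Reads expected from the opposite strand equal 89.6% of the mean of SIM, 11.9% of that of KRP4 and 126% of that of SMR5, so the counts of SIM and SMR5 in particular may belong to their neighbours.

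Genes that set leaf size by growth leaned the other way, beside 26.2% of all genes higher in long days and 32.1% in short days. Of 8 tested, 5 were higher in long days and 1 in short days, with a median of 1.12 and, with the short-day libraries as 1, 2 and 0. GRF3 and GRF1, growth-regulating factors that keep leaf cells dividing and expanding, had 452, 761 and 484 and 457, 508 and 392 in long days against 152, 146 and 75.1 and 152, 179.5 and 159 in short days. They were 4.54-fold and 2.77-fold higher in long days (adjusted p = 5.3e-04 and 7.1e-05). CYCD3;2, a cyclin that starts the cell cycle, was 1.57-fold higher in long days (adjusted p = 0.0072), a call lost with the short-day libraries as 1 (adjusted p = 0.149). The growth factors and this cyclin were higher in the group whose replication genes were lower.

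**Figure D3:**
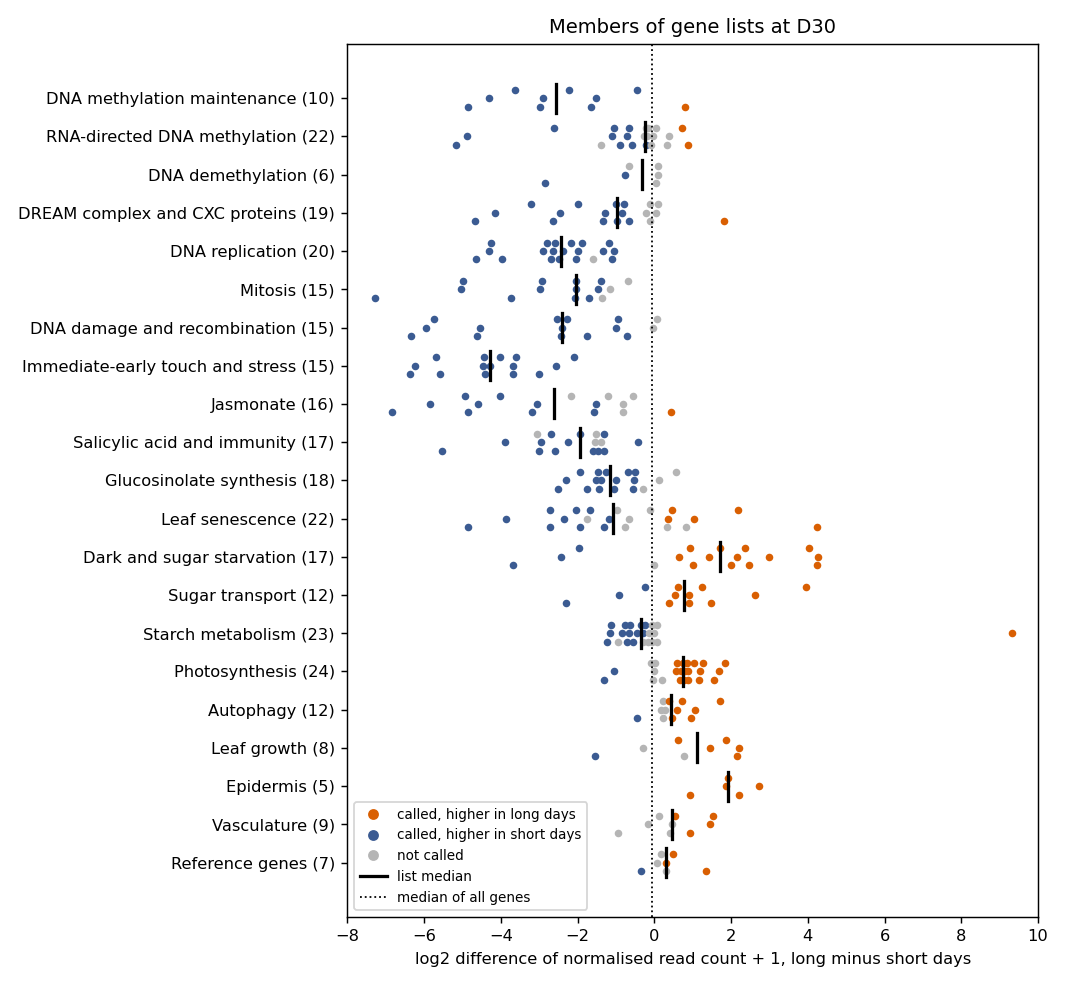
Each point is 1 tested member of a gene list, placed by its log2 difference at D30, long minus short days, with the number tested in brackets, the list median as a black bar and the median of all genes (-0.05) as a dotted line. Orange and blue points were called higher in long and in short days, and grey points were not called. Replication, DNA damage and immediate-early genes lie to the left, and sugar starvation and epidermis genes mostly to the right.

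The touch and stress genes that plants switch on within minutes gave the widest gap of any list of 10 or more tested genes, by median. This list, like the others, was chosen with earlier results of these data known, so the rank is a description only. All 15 tested were higher in short days, with a median log2 difference of -4.30, where 32.1% of all genes were higher in short days, and all 15 kept the call with those libraries as 1. Their summed level was 14507 to 16599 in long days and 186724 to 189103 in short days. WRKY40, a stress-induced repressor, had 131, 870.2 and 147 in long days and 19452, 19214 and 19541 in short days, 50.7-fold higher in short days (log2 difference -6.24 ± 0.63 SE, adjusted p = 9.6e-05). Long-day replicate 2 was the highest of its group, and without it the difference was -7.12. CML37 and CML38, calcium-binding proteins, had 74.6, 81.5 and 23 and 224, 234 and 126 in long days against 4650.2, 4304 and 4313 and 9768, 9608 and 9992 in short days. They were 74.1-fold and 50.3-fold higher in short days (adjusted p = 9.9e-06 and 6.0e-07). BAP1, a membrane-binding inhibitor of defence, had 121, 128 and 52 against 4635, 4576 and 4389, 45.1-fold higher. PHI-1, a small EXORDIUM-type protein, was 11.3-fold higher (log2 difference -3.68 ± 0.40 SE, adjusted p = 1.4e-04). The labels give neither the hour of harvest nor the handling of the leaves.

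Jasmonate genes, which answer wounding, followed in the same direction. Of 16 tested, 10 were higher in short days and 1 in long days, against 32.1% and 26.2% of all genes, with a median of -2.61. Taking the short-day libraries as 1 left 3 called higher in short days. LOX3 and LOX4, lipoxygenases that start jasmonate synthesis, had 517, 3525 and 136 and 342, 1726 and 188 in long days against 17832, 18200.2 and 18329 and 27710.5, 27996 and 27965 in short days. Long-day replicate 2 stood above the other long-day libraries for both. The LOX3 difference of -4.85 ± 0.97 SE became -6.09 without that replicate and -3.74 without long-day replicate 3, and that of LOX4, -5.85 ± 0.68 SE, became -6.78 and -5.18. JAZ5, a jasmonate repressor, had 79.3, 569.7 and 35 against 3632, 3649 and 3501 (log2 difference -4.93 ± 0.85 SE, adjusted p = 0.0016), with -6.06 and -4.07 in the same cases. PDF1.2, a defensin under jasmonate and ethylene, had 59.3, 14.7 and 0 against 1127, 1181 and 1052 (log2 difference -6.84 ± 1.26 SE, adjusted p = 0.0022), with -8.15 without long-day replicate 1 and -5.19 without long-day replicate 3. LOX3, JAZ5 and PDF1.2 were not called with the short-day libraries as 1 (adjusted p = 0.131, 0.097 and 0.110). Without long-day replicate 2, 13 of the list were higher in short days.

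The jasmonate repressor JAZ8 and the ethylene response factors ERF13 and RRTF1 were among the 10 genes furthest toward short days. JAZ8 had 0, 49.5 and 0 against 891, 919 and 1093 and ERF13 had 0.956, 134 and 0.999 against 2229, 2104 and 2161, 58.7-fold and 47.9-fold higher in short days. RRTF1 had 42.1, 637 and 51 against 23144, 23319.5 and 23291, 95.6-fold higher, with reads expected from the gene opposite equal to 77% of its mean. Long-day replicate 2 held most of the long-day reads of all 3. Without it the log2 differences of JAZ8, ERF13 and RRTF1, -8.03, -8.07 and -7.69 with all libraries, were -9.91, -10.10 and -8.94. Without long-day replicate 1 they were -7.09, -7.04 and -7.00, and without long-day replicate 3 those of JAZ8 and ERF13 were -7.09 and -7.06. JAZ8 and ERF13 were not called with the short-day libraries as 1 (adjusted p = 0.094 and 0.107).

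Genes of salicylic acid and immunity were mostly higher in short days, beside 32.1% of all genes, with long-day replicate 1 apart from the other long-day libraries. Of 17 tested, 13 were higher in short days and 0 in long days, with a median of -1.93, 7 with the short-day libraries as 1 and 17 without long-day replicate 1. The summed level was 8713 to 99526 in long days and 68938 to 69945 in short days, so the groups overlapped. PR1, the classic marker of this pathway, had 35759, 179.5 and 719 in long days and 14128, 14089 and 13748 in short days, and it was not called (adjusted p = 0.142). PR1 was named after its values were seen. WRKY38, a repressor of basal defence, had 86, 3.66 and 7.99 against 757, 712 and 664 and was 21.8-fold higher in short days (log2 difference -5.53 ± 0.93 SE, adjusted p = 0.0014). Its difference was -6.78 without long-day replicate 1 and -4.67 without long-day replicate 2, and its call was lost with the short-day libraries as 1 (adjusted p = 0.092). PBS3, an enzyme of salicylic acid synthesis, had 671, 275 and 301 against 3067, 2975 and 3209, 7.42-fold higher in short days (log2 difference -3.01 ± 0.30 SE, adjusted p = 8.6e-05). WRKY18 and CBP60G, regulators of the response, were 7.69-fold and 6.38-fold higher in short days (adjusted p = 4.2e-07 and 4.5e-06).

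In the abscisic acid list, 8 of 15 tested genes were higher in short days and 2 in long days, with a median of -0.39 and 4 and 1 with the short-day libraries as 1. With all 6 libraries, 32.1% of all genes were higher in short days and 26.2% in long days. The largest differences were in the CYP707A hydroxylases, which break the hormone down. CYP707A3 had 122, 104 and 106 in long days and 7184, 7204 and 7174 in short days, 64.8-fold higher in short days (log2 difference -6.01 ± 0.08 SE, adjusted p = 2.8e-08), and CYP707A1 was 5.26-fold higher (adjusted p = 3.0e-06). CYP707A2 had 155, 17.4 and 97.9 against 339, 350 and 315 (log2 difference -2.35 ± 0.69 SE, adjusted p = 0.019). Its difference was -2.97 without long-day replicate 1 and -1.43 without long-day replicate 2, and its call was lost without any 1 short-day library (adjusted p of 0.056 to 0.059). ABI5, a factor of the hormone's response, was 2.25-fold higher in short days (adjusted p = 0.001), with 0.059 when the short-day libraries were taken as 1 and 0.172 in a fit of all 15 groups. CYP707A2 was also not called with the short-day libraries as 1 (adjusted p = 0.247).

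Ethylene genes gave 6 higher in short days and 4 in long days of 14 tested, against 32.1% and 26.2% of all genes, with a median of -0.23 and 2 and 3 with the short-day libraries as 1. ACS6, which makes the ethylene precursor after stress, had 501, 452 and 309.8 against 18405, 18026 and 18498, 43.5-fold higher in short days (log2 difference -5.47 ± 0.16 SE, adjusted p = 2.0e-07). ERF1, a response factor, had 8.6, 17.4 and 5.0 against 142, 148 and 138, 13.8-fold higher (log2 difference -3.82 ± 0.41 SE, adjusted p = 1.4e-04). The receptor ETR2 was 2.41-fold higher in short days and ACS8, another precursor enzyme, 1.98-fold higher in long days, but neither was called with the short-day libraries as 1 (adjusted p = 0.147 and 0.157) or in a fit of all 15 groups (adjusted p = 0.069 and 0.472). The ACS8 call was also lost without long-day replicate 3 (adjusted p = 0.061), short-day replicate 1 (0.053) or short-day replicate 2 (0.058). Glucosinolate synthesis, which makes the mustard oils that deter insects, had 15 of 18 tested genes higher in short days and 0 in long days, with a median of -1.16 and 8 with the short-day libraries as 1. MYB51, the regulator of the indole branch, had 1058, 1018 and 1161 against 5436, 5239 and 5179, 4.9-fold higher in short days (log2 difference -2.29 ± 0.07 SE, adjusted p = 2.6e-07). FMOGS-OX1 and CYP79F2, enzymes of the aliphatic branch, were 5.54-fold and 3.77-fold higher in short days, and SOT17, which adds the sulfate, 3.06-fold (adjusted p = 0.117 with the short-day libraries as 1, not called).

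Genes that leaves raise in darkness and when sugar runs short were higher in the long-day libraries. Of 17 tested, 13 were higher in long days and 3 in short days, with a median log2 difference of 1.72 where 26.2% of all genes were higher in long days, and with the short-day libraries as 1 the counts were 13 and 2. ASN1, an asparagine synthetase that stores nitrogen in darkness, had 1245, 1617 and 1874 in long days and 62.4, 94.8 and 86 in short days, 19.5-fold higher in long days (log2 difference 4.27 ± 0.20 SE, adjusted p = 1.9e-06). SEN1, a marker of darkness and senescence, had 13370.5, 19049 and 24165 against 952, 908 and 1063, 19.4-fold higher (log2 difference 4.24 ± 0.19 SE, adjusted p = 1.6e-06). DIN10, related to raffinose synthases, had 17380.3, 25064 and 34577 against 1537, 1452 and 1503, 17.1-fold higher (log2 difference 4.04 ± 0.21 SE, adjusted p = 3.3e-06). No long-day library of these 3 genes, picked for large differences, fell into the short-day range. Over all tested genes, 30.2% lay wholly higher in long days. PHI-1, which the immediate-early list also holds, was the member furthest in the other direction.

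Sugar transport followed the same direction for most members, beside 26.2% of all genes higher in long days and 32.1% in short days. Of 12 tested, 9 were higher in long days and 3 in short days, with a median of 0.76 and 3 and 1 with the short-day libraries as 1. STP1, a hexose importer of the plasma membrane that sugar represses, had 30590.2, 44958 and 53456 in long days and 2727, 2602 and 2716 in short days, 16-fold higher in long days (log2 difference 3.97 ± 0.18 SE, adjusted p = 1.7e-06). STP14 had 2113, 2798 and 2682 against 424, 416 and 382, 6.21-fold higher (log2 difference 2.62 ± 0.12 SE, adjusted p = 1.4e-06). STP4, a hexose importer of sink tissue, was 2.88-fold higher but not called with the short-day libraries as 1 (adjusted p = 0.0796). SWEET17, a fructose carrier of the vacuole, went the other way, with 105, 132 and 73.9 against 530.4, 486 and 492 (log2 difference -2.31 ± 0.21 SE, adjusted p = 5.2e-05).

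Starch genes leaned to short days, 13 of 23 tested, against 1 in long days, which was QQS. Among all genes, 32.1% were higher in short days and 26.2% in long days. The median was -0.34, and 5 were higher in short days with those libraries as 1. The differences were small. BAM1, a beta-amylase that opens starch to the cell, had 3816, 3094 and 3316 against 7684, 8129 and 8099, 2.34-fold higher in short days (log2 difference -1.23 ± 0.09 SE, adjusted p = 1.4e-05), and PHS2, a glucan phosphorylase, was 2.21-fold higher (log2 difference -1.16 ± 0.13 SE, adjusted p = 1.4e-04). APL3, a subunit of the enzyme that makes the starch precursor, had 1072, 393 and 492 against 1275, 1269 and 1363 (adjusted p = 0.017). Its call was lost with the short-day libraries as 1 (adjusted p = 0.233), without long-day replicate 3 (0.0598), without short-day replicate 1 (0.051) and without short-day replicate 3 (0.059).

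Photosynthesis genes were mostly higher in long days, 17 of 24 tested against 2 in short days, with a median of 0.75. Among all genes, 26.2% were higher in long days and 32.1% in short days. With the short-day libraries as 1 the counts were 5 and 2. LHCB2.1 and LHCB2.2, antenna proteins of photosystem II, had 24852, 28196 and 28067 and 16962, 18997 and 18046 in long days against 8385, 8346 and 8645 and 4935, 5191 and 4965 in short days, 3.2-fold and 3.58-fold higher in long days. LHCB3 was 2.98-fold higher (log2 difference 1.55 ± 0.16 SE, adjusted p = 1.1e-04). RBCS1B, a small subunit of Rubisco, went the other way, with 5009.6, 5579 and 3877 against 11632, 11905 and 11667 (log2 difference -1.30 ± 0.13 SE, adjusted p = 7.4e-05), and was not called in a fit of all 15 groups (adjusted p = 0.054). LHCB and RBCS genes have near-identical copies, so their single values are uncertain.

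Chlorophyll synthesis was divided, with 7 of 14 tested genes higher in long days and 6 in short days, or 3 and 3 with the short-day libraries as 1. Over all genes, 26.2% were higher in long days and 32.1% in short days. HEMA1, which catalyses the first committed step, had 2940.2, 2518 and 2591 against 7290.1, 6725 and 7315, 2.65-fold higher in short days (log2 difference -1.41 ± 0.08 SE, adjusted p = 4.6e-06), and CHLG, which catalyses the last, was 1.95-fold higher in short days. CAO, which makes chlorophyll b, was 1.91-fold higher in long days (adjusted p = 4.2e-05). GUN4, an activator of magnesium chelatase, had 1444, 1315 and 1242 against 405, 392 and 369.8, 3.43-fold higher in long days, with reads expected from the gene opposite equal to 47.1% of its mean.

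Leaf senescence genes did not move as 1 group. Of 22 tested, 10 were higher in short days and 5 in long days, against 32.1% and 26.2% of all genes, with a median of -1.08 and 7 and 2 with the short-day libraries as 1. WRKY53, an early regulator of senescence that stress also induces, had 428, 218 and 319 against 9114, 9226 and 8814, 28.1-fold higher in short days (log2 difference -4.86 ± 0.21 SE, adjusted p = 1.2e-06). WRKY54 and WRKY70, which delay senescence and act in salicylic acid signalling, were 12.7-fold and 6.18-fold higher in short days (adjusted p = 8.6e-05 and 1.4e-04). SEN1 was the called member furthest toward long days. The part of the immediate-early and salicylic acid genes in this list's count was not tested.

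Chlorophyll breakdown differed little. Of 8 tested, 4 were higher in long days and 1 in short days, against 26.2% and 32.1% of all genes, with a median of 0.15. NYC1 and NOL, which turn chlorophyll b into a, and PPH, which removes the phytol tail, were 1.46-fold, 1.5-fold and 1.39-fold higher in long days, and RCCR, which acts later, was 1.54-fold higher in short days. None of the 4 was called with the short-day libraries as 1, the adjusted p being 0.077 for NYC1, 0.066 for NOL, 0.078 for PPH and 0.124 for RCCR. NYC1 was also not called in a fit of all 15 groups (adjusted p = 0.125). Autophagy, which recycles cell contents, had 7 of 12 tested genes higher in long days and 1 in short days, with a median of 0.42 and 3 in long days when the short-day libraries were taken as 1. ATG8E, a protein that coats the forming autophagosome, had 2163, 2562 and 2783 against 723, 784 and 784, 3.28-fold higher in long days (log2 difference 1.7 ± 0.10 SE, adjusted p = 5.9e-06), and its relatives ATG8C, ATG8F and ATG8H were 1.66-fold, 1.95-fold and 2.12-fold higher. ATG8H was not called with the short-day libraries as 1 (adjusted p = 0.0802).

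Nitrogen remobilisation gave 4 genes higher in long days and 2 in short days of 11 tested, or 2 and 1 with the short-day libraries as 1, and a median of -0.01. Of all genes, 26.2% were higher in long days and 32.1% in short days. GDH1, a glutamate dehydrogenase active when carbon is short, was 3.21-fold higher in long days (log2 difference 1.67 ± 0.11 SE, adjusted p = 9.9e-06). GLN1;4, a cytosolic glutamine synthetase, was 2.69-fold higher in short days (log2 difference -1.43 ± 0.10 SE, adjusted p = 1.1e-05). GLN1;1, another, had 15565, 5804 and 7784 against 17384, 18200.2 and 18129 (adjusted p = 0.023), and its call was lost without long-day replicate 3 (adjusted p = 0.075), without any 1 short-day library (adjusted p of 0.064 to 0.071) and with the short-day libraries as 1 (adjusted p = 0.267).

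Clock genes were called in both directions, 9 of 18 tested higher in long days and 6 in short days, with a median of 0.36 and 5 and 4 with the short-day libraries as 1. Over all genes, 26.2% were higher in long days and 32.1% in short days, the latter close to the share of the clock list. RVE4, a morning activator, had 2251, 2848 and 2689 against 1049, 1143 and 1097, 2.37-fold higher in long days (log2 difference 1.24 ± 0.10 SE, adjusted p = 2.5e-05). LNK1, its partner in activation, had 997, 818 and 779 against 2814, 2698 and 2661, 3.15-fold higher in short days (log2 difference -1.66 ± 0.10 SE, adjusted p = 6.0e-06), with reads expected from the gene opposite equal to 5.76% of its mean. The evening genes ELF4 and BOA were 2.48-fold and 2.75-fold higher in short days, with adjusted p of 0.137 and 0.201 in a fit of all 15 groups, where neither was called. Reads from the gene opposite may make up 13.4% of the mean of BOA. Without the hour of harvest, clock phase and level cannot be told apart.

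Genes of flowering time were also called in both directions, 6 of 20 tested in long days and 5 in short days, or 3 and 3 with the short-day libraries as 1. Against 26.2% and 32.1% of all genes, these counts show nothing particular to the list. CDF2 and CDF3, which repress the activator of FT, had 487, 506 and 604 and 1158, 1347 and 1311 in long days against 222, 182 and 235 and 536, 444 and 517 in short days, 2.5-fold and 2.55-fold higher in long days. TEM2, another repressor of FT, had 3429.6, 3172 and 4642 against 7775, 7581 and 7707, 2.05-fold higher in short days (log2 difference -1.06 ± 0.13 SE, adjusted p = 3.0e-04). SPL5, an age-dependent activator, was 4.51-fold higher in short days, but reads expected from the gene opposite equal 219.9% of its mean, and it was not called with the short-day libraries as 1 (adjusted p = 0.054). In light signalling, 10 of 24 tested genes were higher in long days and 9 in short days, against 26.2% and 32.1% of all genes, or 6 and 4 with the short-day libraries as 1. PHYA, the photoreceptor that builds up in darkness, had 8648, 11281 and 11305 against 3116, 3241 and 2976, 3.35-fold higher in long days (log2 difference 1.73 ± 0.11 SE, adjusted p = 8.6e-06). BBX21 was 3.07-fold higher in long days, whereas HY5, which it activates, had 45.9, 42.1 and 53 against 152, 147 and 98.5 and was 2.82-fold higher in short days (log2 difference -1.46 ± 0.24 SE, adjusted p = 0.0013). SPA3, which helps degrade HY5, was 2.42-fold higher in short days, with 11% of its mean expected from the gene opposite.

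Markers of cell types also differed, beside 26.2% of all genes higher in long days and 32.1% in short days. All 5 tested epidermis genes were higher in long days, with a median log2 difference of 1.91, and 4 with the short-day libraries as 1. Their summed level was 27104 to 35425 in long days and 6288 to 6397 in short days. CER6, which lengthens fatty acids for leaf wax, had 15891, 21655 and 19663 in long days and 2810.1, 2827 and 2964 in short days, 6.65-fold higher in long days (log2 difference 2.72 ± 0.11 SE, adjusted p = 9.7e-07). CER5, a wax exporter, and the elongases FDH and KCS1 were 4.59-fold, 3.78-fold and 3.67-fold higher. Of 9 vasculature genes tested, 4 were higher in long days and 0 in short days, led by SULTR2;1, a sulfate transporter of the veins, at 2.8-fold (log2 difference 1.46 ± 0.17 SE, adjusted p = 1.9e-04). The sucrose loader SUC2 and SEOR1, a sieve element protein, were 1.47-fold and 1.95-fold higher, with adjusted p of 0.223 and 0.114 when the short-day libraries were taken as 1 and 0.154 and 0.093 in a fit of all 15 groups, where neither was called.

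The stomatal and myrosin cell markers had few tested members. FAMA, which ends the guard cell lineage, was 1.45-fold higher in long days, with an adjusted p of 0.114 when the short-day libraries were taken as 1 and 0.155 in a fit of all 15 groups, not called in either. TGG1, a myrosinase of myrosin cells, had 4036, 10921 and 7399 in long days and 3045, 2848 and 3079.9 in short days, 2.49-fold higher in long days. TGG2, its relative, had 214, 776 and 681 against 1441, 1388 and 1224 and was 2.42-fold higher in short days. The TGG2 difference of -1.48 was -0.89 without long-day replicate 1, and its call was lost without any 1 short-day library (adjusted p of 0.051 to 0.064). With the short-day libraries as 1, TGG1 and TGG2 were not called (adjusted p = 0.198 and 0.243). Genes often used as references were not level either. UBQ10 was 2.53-fold higher in long days (adjusted p = 2.5e-05, and 0.051 with the short-day libraries as 1), and PP2AA3 was 1.39-fold higher. ACT2 was 1.25-fold higher in long days (adjusted p = 0.047), a call lost without any single library other than long-day replicate 1 (adjusted p of 0.098 to 0.144). GAPC2 was 1.27-fold higher in short days (adjusted p = 0.014), a call lost without short-day replicate 1 or 2 (adjusted p = 0.055 and 0.055) and in a fit of all 15 groups (0.064), and 3 of 7 reference genes tested were not called. None of them was called when the short-day libraries were taken as 1.

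The same leaves at the other ages put these differences beside those of D13, D18, D23 and D40. The long-minus-short difference at D30 was compared with its mean at D13, D18, D23 and D40 in 1 fit of all 45 libraries. Some libraries of that fit had many zeros among low genes. Of genes at 20 to 50 in the group's other libraries, 16.3, 12.1 and 6.24% read 0 in the short-day D40 libraries. The share was 36.1% in tcx5/6 D18 replicate 2 and at most 0.108% in the 6 D30 libraries compared. What set these zeros was not tested. Over all genes, the groups did not overlap for 30.9% higher in long days and 33.9% higher in short days at D13, 26.1% and 26.3% at D18, 33.8% and 34.9% at D23, 30.2% and 36.1% at D30, and 20.9% and 29.0% at D40. The D30 difference departed from that mean for 3866 of 20490 genes (18.9%), more positive at D30 for 1653 (8.07%) and more negative for 2213 (10.8%). Without long-day replicate 3 the more positive genes numbered 1080. In the immediate-early list, 15 of 15 tested genes were more negative at D30. Its median log2 difference was 3.70 at D13, -0.02 at D18, 0.92 at D23, -4.30 at D30 and -3.86 at D40, and at D13 the long-day range lay above the short-day range for 11 of 15 genes, against 30.9% of all genes. At D30 all 15 short-day ranges lay above the long-day ranges, against 36.1% of all genes, and at D40 again all 15, against 29.0%. The summed level of the short-day leaves was 4139 to 4427 at D23 and 186724 to 189103 at D30, while that of the long-day leaves was 5073 to 11286 and 14507 to 16599.

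WRKY40 followed the same course. In short days it had 92.1 to 136 at D13, 521 to 695 at D18, 25.6 to 46.6 at D23 and 25492 to 26552 at D40, and in long days 339 to 18624 at D13, 164 to 2182 at D18, 135 to 403 at D23 and 308 to 1805 at D40, beside 19214 to 19541 and 131 to 870.2 at D30. Its D30 difference lay -6.91 (SE 1.03, adjusted p = 6.2e-06) from the mean of the other days on the log2 scale. The differences of JAZ8 and ERF13 lay -7.63 (SE 1.38, adjusted p = 1.0e-04) and -7.82 (SE 1.72, adjusted p = 0.001) from theirs. By the same test, 10.8% of all genes were more negative at D30 and 8.07% more positive, and the counts of list members that follow stand beside those shares. Jasmonate genes as a list had medians of 0.46, -0.63, -0.89, -2.61 and -2.67 at the successive ages, and 8 of 16 were more negative at D30.

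Methylation maintenance and replication genes had medians below 0 at every age, further from 0 at D30 than at D13, D18 or D23. The median log2 difference of the methylation maintenance list was -1.79, -1.34, -0.98, -2.57 and -4.30 from D13 to D40, and 4 of 10 tested genes were more negative at D30. Their summed level in long-day leaves was 3244 to 3379 at D23 and 1425 to 1590.1 at D30, while short-day leaves had 4454 to 4502 and 5245 to 5819. Replication medians were -0.49, -0.50, -0.19, -2.44 and -4.31, with 7 of 20 tested genes more negative at D30 and 1 more positive. The long-day sum was 5295 to 5612 at D23 and 1749 to 2167 at D30, whereas the short-day sum was 7954 to 8120.4 and 11495 to 11731. CMT3 had 166 to 192 in long days and 968 to 1031 in short days at D23, and its D30 difference lay -1.93 (SE 0.32, adjusted p = 3.5e-05) from the other days' mean.

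Sugar starvation genes had medians above 0 at every age, of 2.95, 2.07, 0.12, 1.72 and 0.09. Of 17 tested, 7 were more positive at D30 and 3 more negative. Starch genes had medians above 0 until D23 (0.41, 0.11 and 0.19) and below 0 from D30 (-0.34 and -0.87). Of 23 tested, 10 were more negative at D30 and 1 more positive. The epidermis list had medians of 0.78, 0.57, 1.27, 1.91 and -2.48, with 4 of 5 more positive at D30. In long-day leaves its summed level was 27104 to 35425 at D30 and 592 to 2312 at D40, and in short-day leaves 6288 to 6397 and 4126 to 4498. Photosynthesis had medians of 1.62 at D23, 0.75 at D30 and -2.19 at D40, and the sign of its median was the opposite at D40.

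**Figure D4:**
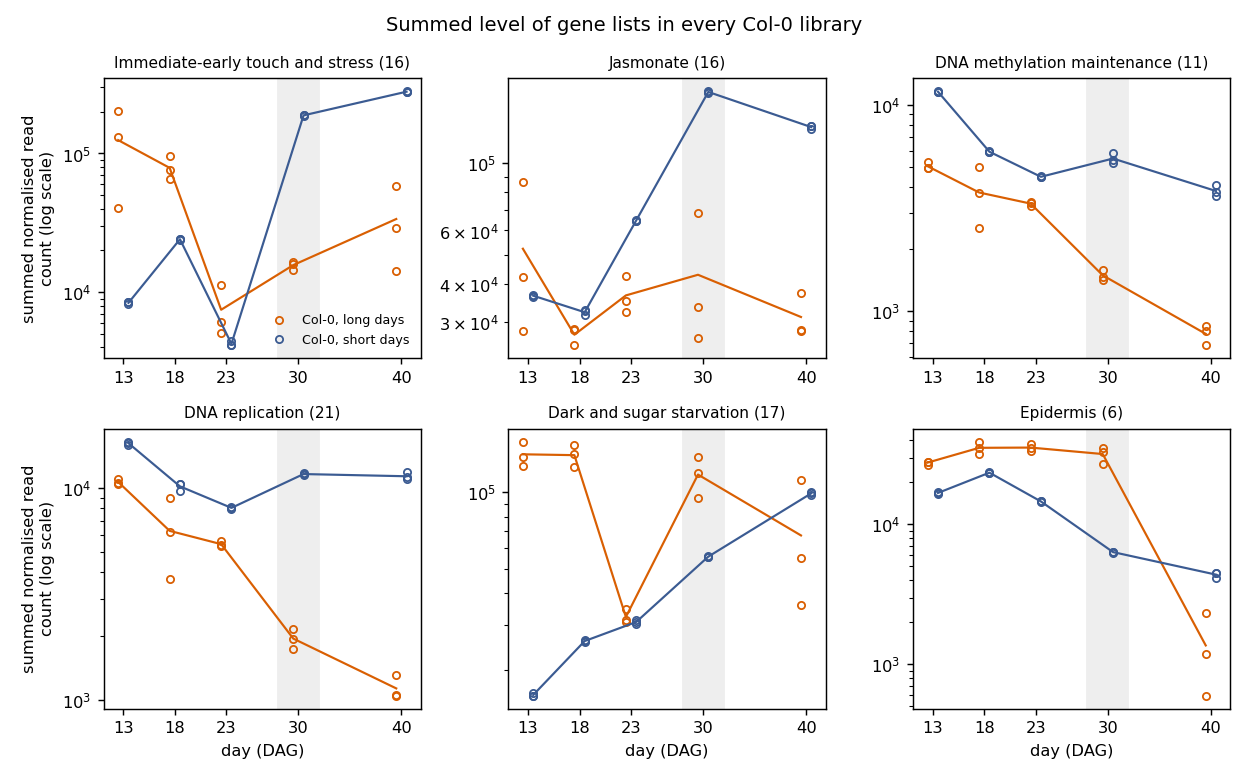
Summed normalised read count of 6 gene lists (number of members in brackets) in every Col-0 library, on a log scale, against the labelled day (DAG), with 1 open point per library, lines through the group means and D30 shaded. Short-day libraries are blue and long-day libraries orange, and the immediate-early sum of the short-day leaves stands at 186724 to 189103 at D30 after 4139 to 4427 at D23.

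Single genes set apart by D30 included members of the top lists and 2 others, LTP3 and GPAT3. CYP81D11 had 8.76 to 36 in long days at D23, 899 to 2133 at D30 and 7.14 to 66.2 at D40, and its D30 difference lay 6.26 (SE 1.21, adjusted p = 2.4e-04) from the other days' mean. It was thus high in long-day leaves at D30 and not at D23 or D40. LTP3, a lipid transfer protein, had 5464, 258 and 1798 in long days and 311, 292 and 309 in short days at D30, so the groups overlapped. Its D30 difference lay 5.30 (SE 1.27, adjusted p = 0.0027) from the mean of the other days. That departure is larger than the D30 difference itself, so it also rests on the values at the other days. GPAT3, an acyltransferase of glycerol lipids, had 120.4, 65.9 and 52 against 4279, 4171 and 4354 at D30. Its D30 difference lay -6.75 (SE 0.43, adjusted p = 2.7e-13) from the other days' mean. TCX5, TCX6 and QQS differed in the same direction at every age, and their D30 differences lay 0.29 (SE 0.25, adjusted p = 0.481), -1.24 (SE 0.74, adjusted p = 0.267) and -0.01 (SE 0.29, adjusted p = 0.993) from the other days' means.

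**Figure D5:**
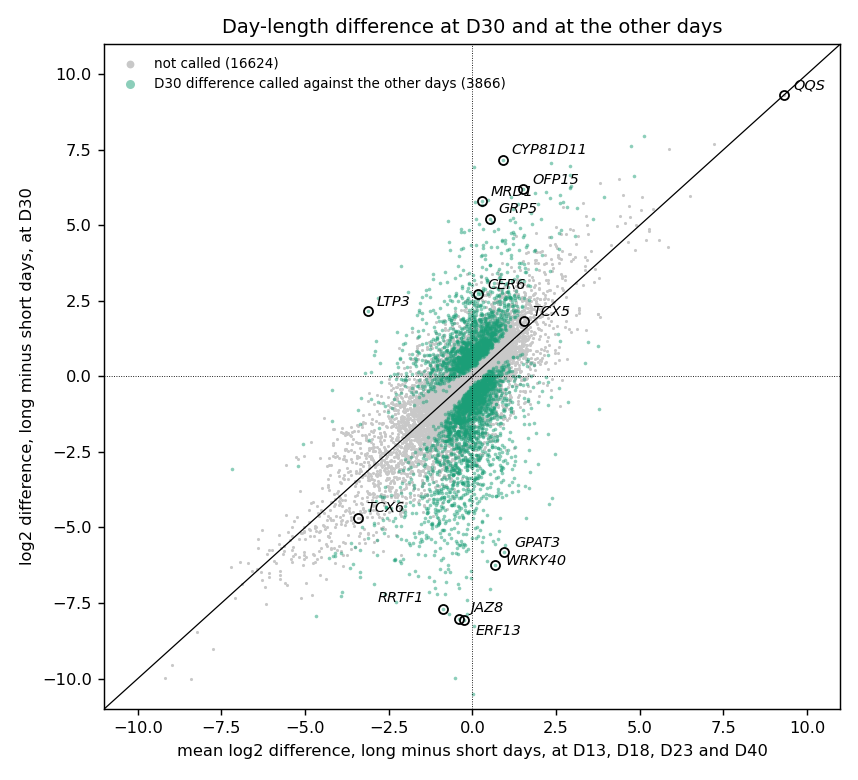
Log2 difference of each of the 20490 tested genes, long minus short days, at D30 on the y axis against its mean over D13, D18, D23 and D40 on the x axis, with equal values on the diagonal. Green points are the 3866 genes whose D30 difference was called against the other days. QQS and TCX5 lie near the diagonal, and WRKY40, JAZ8 and ERF13 lie far below it.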

How the data were processed

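The series measured polyA RNA of first true leaves in 45 libraries. Per the submitters' processing notes, the authors' tools were DESeq2 1.40.1, HTSeq 2.0, STAR 2.7.1a and, besides these, Trim Galore 0.6.6 with cutadapt, their roles and order being not stated there. Libraries were not stranded, per the labels' protocols. The genome build, annotation and strand setting are not given in the sources used here. The deposited table holds a normalised signal, read counts per gene divided by a factor for each library. Dividing by each library's smallest step gave whole reads for 100% of values (tolerance 0.01), so reads were recovered for the count tests. The 5 rows that name no gene were left out of library sizes and tests. They include reads in no gene and ambiguous reads. In the 6 libraries these made up 47.3 to 48.2% and 0.136 to 0.146% of themselves and the reads in genes together.

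Genes with 10 or more in at least 3 of the 6 libraries were tested by limma 3.58.1 (R 4.3.3) on log2(value + 1), with a mean-variance trend and Benjamini-Hochberg adjustment over all 20490, and called at an adjusted p under 0.05. Fold changes are ratios of group means, while log2 differences use the pseudocount of 1 and understate changes of low genes. The difference at D30 was set against the mean of 4 other ages in 1 fit of 15 groups (30 residual degrees of freedom). A group at 0 was set to 3 reads over its libraries together for a lower bound. Named genes were the 10 highest and 10 lowest log2 differences among called genes with a symbol and a mean of 100 or more in the higher group, up to 4 called members per gene list with the largest differences and the same mean, 8 chosen genes, and the 5 highest and lowest for the difference at D30 against other ages. In all, 1 of the named genes is not reported here. Members of the 40 gene lists and the lists themselves were chosen with earlier results of these data known. The alternatives were edgeR 4.0.16 and DESeq2 1.42.0 on whole reads, TMM and quantile scaling, pseudocounts of 0.5 and 10, other filters (none, or 50), a replicate block, single libraries left out, and groups taken as 1 library. The scripts were tested on simulated counts. Opposite-strand overlap used RefSeq TAIR10.1 exons: the partner's mean was scaled to the overlapped share of its own exons.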

Additional observations from a re-analysis of the deposited data

Results flagged for a closer look

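The day-length difference at D30 departed from the mean of the 4 other ages for 3866 genes by the test of that difference in the fit of all 45 libraries. On the log2 scale it was more positive at D30 by 6.26 for CYP81D11, 5.51 for MRD1, 5.30 for LTP3, 4.70 for GRP5 and 4.68 for OFP15. The departure was -7.82 for ERF13, -7.63 for JAZ8, -6.91 for WRKY40, -6.80 for RRTF1 and -6.75 for GPAT3, all more negative at D30. The immediate-early list, which holds WRKY40, had a median log2 difference of -4.30 at D30 and -3.86 at D40. The gap of that list was thus not particular to D30. All 10 genes kept their call and direction without any 1 of the 6 D30 libraries, in a fit of the 10 Col-0 groups, with D40 left out, with quantile normalisation, with a pseudocount of 10 and with the replicate block.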

How the results depend on the processing

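The count of called genes at D30 was 11948, and it was 8415 in a fit of all 15 groups, 11727 with edgeR and 11785 with DESeq2 on whole reads, 11921 after TMM scaling and 12288 after quantile normalisation. Leaving out each library in turn gave 10165 to 12677 called genes, 4549 to 5590 higher in long days and 5535 to 7087 higher in short days. With the short-day libraries as 1 there were 5000, 2336 and 2664. With each group as 1 library, a setting added after seeing the data, 5783 genes differed 2-fold or more, 2098 and 3685 by direction, with no test. For the D30 difference against other days the same leave-outs gave 2687 to 3678 genes, 1080 to 1520 more positive and 1607 to 2158 more negative, and quantile normalisation gave 3034 more positive. The main fit gave 3866 genes, a fit of only the 10 Col-0 groups 4720 and a fit with D40 left out 4557. Of 153 named genes none reversed, 41 lost the call with the short-day libraries as 1 and 12 in the fit of all 15 groups. The cause of these changes was not tested, and most named genes were chosen for large differences, which made a reversal unlikely.

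Replicate numbers are shared by the groups, and correlations of same-numbered libraries' deviations were 0.00217, -0.0127 and 0.0122, so no shared deviation was seen. The spread of the short-day libraries hardly grew with level, so this check could miss a pairing and does not exclude it. With the replicate block, 11257 genes were called at D30 (5026 and 6231) and 3872 against the other days, and of the named genes 1, ACT2, lost its call. Depth limits genes near the 10-read filter, and a gene at 0 in a group was bounded at 3 reads over that group.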

Other observations

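Calls among flavonoid genes and the regulators of anthocyanin pigment changed with the long-day library left out. Of 13 tested, 4 were higher in short days and 2 in long days, against 32.1% and 26.2% of all genes, or 1 and 1 with the short-day libraries as 1, and the median log2 difference was -2.62. Without long-day replicate 1, 10 were higher in short days, and without long-day replicate 2, 2. FLS1, a flavonol synthase, had 0, 0 and 0 in long days and 128, 116 and 187 in short days, at least 150.4-fold higher in short days (log2 difference -7.15 ± 0.40 SE, adjusted p = 4.5e-06). MYBL2, a repressor of anthocyanin synthesis, had 4194, 5468 and 5634 against 745, 807 and 821, 6.45-fold higher in long days (log2 difference 2.68 ± 0.12 SE, adjusted p = 1.3e-06). Both genes separated the groups, as 66.3% of all tested genes did. PAP1, the activator of the pathway, had 243, 22 and 11 against 360.1, 394 and 429, also without overlap. F3H, an early enzyme, had 125, 23.8 and 31 against 133, 141 and 137, likewise without overlap. The PAP1 difference of -3.28 ± 0.96 SE (adjusted p = 0.019) was -4.57 without long-day replicate 1, and its call was lost without any other single library (adjusted p of 0.052 to 0.063), with the short-day libraries as 1 (0.248) and in edgeR (0.071) and DESeq2 (0.128) on whole reads. The F3H difference of -1.57 ± 0.55 SE (adjusted p = 0.0398) was -2.29 without long-day replicate 1, its call was lost without any other single library (adjusted p of 0.095 to 0.123), and reads expected from the gene opposite equal 75.4% of its mean.

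Cold and dehydration genes were called in both directions, 4 of 12 tested higher in long days and 5 in short days, against 26.2% and 32.1% of all genes, or 3 and 4 with the short-day libraries as 1. RD22, a gene of the drought response, had 24018, 13099 and 17791 against 2066, 1899 and 2100, 9.05-fold higher in long days (log2 difference 3.14 ± 0.19 SE, adjusted p = 6.9e-06). CBF1 and CBF2, the switches of cold acclimation, had 452, 647 and 482 and 347, 443 and 383 against 1739, 1698 and 1704 and 1525, 1312 and 1397, 3.25-fold and 3.61-fold higher in short days, and ERD7 was 3.27-fold higher in short days. Of 12 antioxidant genes tested, 3 were higher in long days and 5 in short days, against 26.2% and 32.1% of all genes, or 1 and 0 with the short-day libraries as 1. CSD2, the copper-zinc superoxide dismutase of the chloroplast, had 718, 1017 and 769 against 214, 217 and 203, 3.95-fold higher in long days (log2 difference 1.96 ± 0.14 SE, adjusted p = 1.6e-05). The peroxidases APX1 and SAPX and the iron superoxide dismutase FSD3 were 2.04-fold, 2.0-fold and 1.8-fold higher in short days, and none of the 3 was called with the short-day libraries as 1 (adjusted p = 0.135, 0.176 and 0.107).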
